A study of Homo sapiens with 6 samples.

Results

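The amino acid carriers described here are 33 members of the solute carrier (SLC) families that move amino acids, or in a few cases small peptides, across the plasma membrane or the membrane of the lysosome. They were taken by gene symbol from a table of 61860 genes. All 33 were found, and 29 passed the filter on low counts. Counted with them are the heavy chains SLC3A1 and SLC3A2, and SLC43A3, which is known as a carrier of purine nucleobases. The RNA came from the clear cell renal carcinoma line 786-O, long established in culture, and was sequenced after removal of ribosomal RNA. The control shRNA group (3 libraries) carried a control short hairpin RNA and the METTL3 shRNA group (3 libraries) a hairpin against METTL3, both expressed stably. METTL3 is the catalytic subunit of the enzyme that writes N6-methyladenosine (m6A) into mRNA, and the question was which transcripts differ when it is reduced in renal cancer cells rich in L-2-hydroxyglutarate. Neither clones nor separate cultures are named in the labels, nor is the sequence of a hairpin, so the p-values below cover only the spread between these libraries, and an effect of the hairpin other than through METTL3 cannot be told apart from one through it.

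Cells take up most amino acids by exchange and by sodium-driven import. Sodium-coupled carriers such as the SLC38 proteins build up neutral amino acids, glutamine above all. Exchangers then trade these for leucine, cystine or cationic amino acids. The exchangers are pairs of a light chain that forms the pore (SLC7A5, SLC7A6, SLC7A7, SLC7A8, SLC7A11) and a heavy chain that brings it to the surface (SLC3A2). Other carriers sit in the lysosome, where they release the products of protein breakdown, and SLC38A9 there reports arginine to the kinase complex mTORC1. When amino acids run short, the transcription factor ATF4 is translated and is known to raise several of these carriers.

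METTL3 stood at 37.2, 38.1 and 37.6 CPM in the control libraries and 11.3, 9.84 and 11.4 CPM in the knockdown libraries, where CPM is the usual count scaled to the library total, after TMM adjustment, and here and below 3 values are those of libraries A, B and C in that order. All knockdown libraries were thus below all control libraries (log2 fold change −1.80 with SE 0.08, edgeR adjusted p = 1.45e-07). Library totals ran from 100534896 to 103624456 counts. Of the renal carcinoma markers PAX8, PAX2, KRT8 and KRT18 were present (142, 44.1, 180.2 and 107 CPM on average in the control group), while the proximal tubule receptor LRP2 had at most 5 counts in a library. The 9 renal carcinoma markers summed to between 1774 and 2335 CPM in control and between 3023 and 4294 CPM in knockdown libraries, most of it from the filament protein VIM (log2 fold change 1.02 with SE 0.15, edgeR adjusted p = 0.000374). The list went both ways: the carbonic anhydrase CA12 (1.41, SE 0.18) and PAX8 (0.32, SE 0.08) also rose, and the tubule receptor CUBN fell (−0.68, SE 0.21). PAX2 (−0.19), KRT8 (0.01), KRT18 (−0.05) and CDH6 (0.22) did not pass. The part of these marker differences in the results below was not tested. The defining leukocyte genes PTPRC and CD3E and the endothelial PECAM1, CDH5 and VWF also had at most 5 counts in a library. The 5 leukocyte markers summed to between 49.1 and 58.3 CPM in control and between 87.7 and 114 CPM in knockdown libraries, nearly all of it from CD68, a lysosomal glycoprotein (log2 fold change 0.95 with SE 0.10, edgeR adjusted p = 6.15e-05). The 4 fibroblast markers summed to between 1.73 and 2.42 CPM in control and between 1.20 and 1.43 CPM in knockdown libraries, and the endothelial ones summed to between 0.0865 and 0.136 CPM in control and between 0.0898 and 0.116 CPM in knockdown libraries.

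The carriers moved in both directions, and the strongest movers were not the most abundant ones. Of the 29 tested, 6 rose, 5 fell and 18 did not pass (quasi-likelihood test of edgeR, threshold 0.05 on p adjusted by Benjamini-Hochberg over 18740 genes). Called carriers made up 37.9% of those tested, against 33.5% of all genes tested, so the share lay near the background; 16.5% of all genes were called higher and 16.9% lower. Of the 29, 4 were called with an absolute log2 fold change of at least 0.5, beside 15.1% of all genes. The 6 that rose were the lysosomal peptide and histidine carrier SLC15A4, the neutral exchanger SLC1A4, the taurine importer SLC6A6, the glutamine importer SLC38A2, and SLC43A3 and SLC43A1. The 5 that fell were the glutamate importer SLC1A3, the lysosomal carrier SLC15A3, and SLC43A2, SLC7A6 and SLC38A5. Those that rose had control levels from 17.5 CPM upward (median 58.9 CPM), and those that fell had control levels of at most 44.9 CPM (median 4.51 CPM). CPM is not scaled to transcript length. Per length, control means were from 9.78 FPKM upward in those that rose and at most 14.2 FPKM in those that fell. Levels of all called genes were not set beside these. Log2 fold changes ran from −1.17 to 0.82 with a median of 0.11, and the median over all genes tested was −0.0030. With library size scaling these became −0.0036 for the carriers and −0.11 for all genes, with 3 carriers higher and 7 lower, so small changes are relative to the scaling. Of all genes called, 49.4% were higher with TMM scaling and 29.6% with library size scaling. Leaving out knockdown library B gave 2 carriers higher and 4 lower, and leaving out control library C gave 3 and 5.

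**Figure D1:**
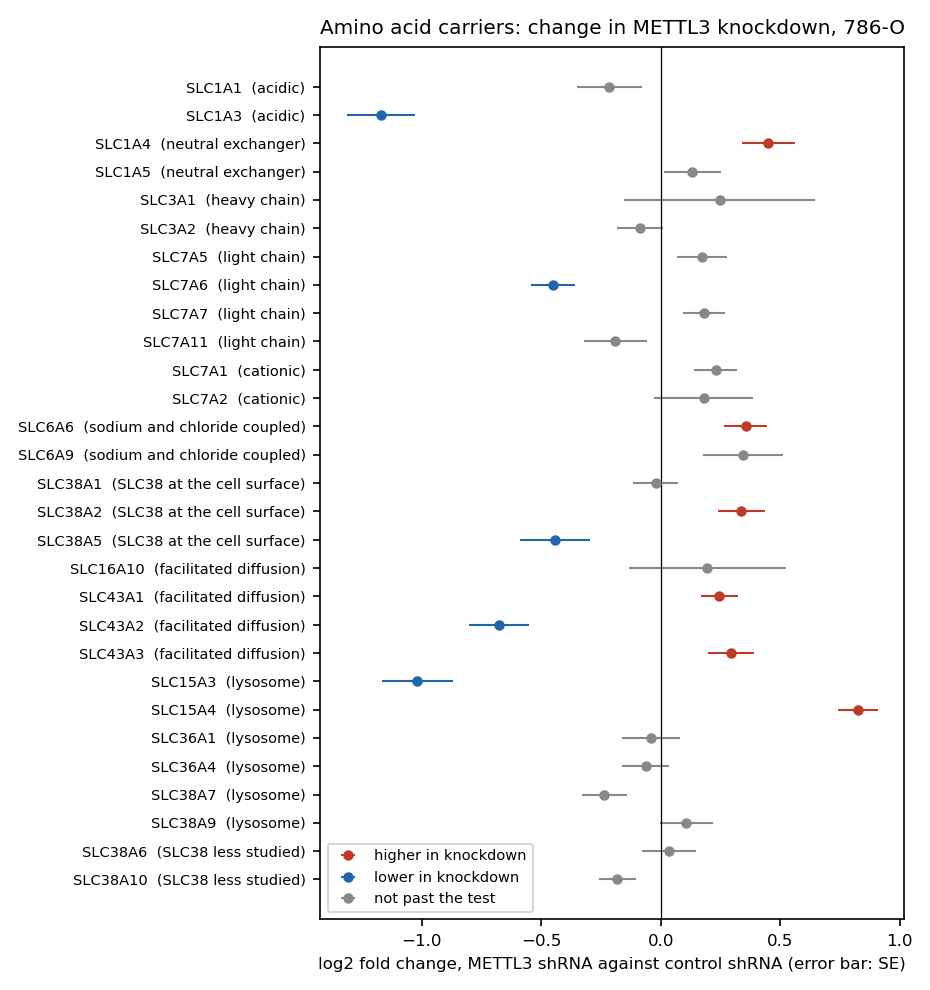
Log2 fold change (METTL3 shRNA against control shRNA) with its standard error for the 29 tested amino acid carriers, ordered by role, red for those that rose, blue for those that fell and grey for those that did not pass. SLC15A4 (0.82) lies farthest to the right and SLC1A3 (−1.17) and SLC15A3 (−1.02) farthest to the left.

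The 2 lysosomal carriers of the SLC15 family, both proton-coupled carriers of histidine and small peptides, moved in opposite directions. SLC15A4 (ENSG00000139370, chr12:128793191-128823983, minus strand in GRCh38) stood at 49.2, 51.6 and 42.3 CPM in the control libraries and 83.7, 86.6 and 83.1 CPM in the knockdown libraries. All knockdown libraries lay above the highest control library, and the level went from 47.7 ± 4.82 to 84.5 ± 1.88 CPM (SD, n = 3 each), a 1.77-fold rise (log2 fold change 0.82 with SE 0.08, edgeR adjusted p = 4.54e-05). SLC15A3 (ENSG00000110446, chr11:60937084-60952530, minus strand) stood at 2.50, 2.63 and 3.11 CPM in the control libraries and 1.37, 1.30 and 1.40 CPM in the knockdown libraries. Every knockdown library lay below every control library here, and the level fell by 50.7% (log2 fold change −1.02 with SE 0.15, edgeR adjusted p = 0.000344). SLC15A4 had no exon overlap with another gene in GENCODE 29. SLC15A3 overlaps TMEM132A on the opposite strand; TMEM132A had 11266, 11312 and 11899 counts in control and 15030, 15454 and 13353 in knockdown libraries (log2 fold change 0.49, SE 0.08, edgeR adjusted p = 0.000956), so the counts of this pair are less certain and its part in the fall of SLC15A3 was not tested. SLC15A4 and SLC15A3 kept call and direction under all 16 alternatives.

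For SLC15A4, the carrier that rose most, the gene start in GENCODE (128823983) lies upstream of the RefSeq start used here. The match marked below, and the bases after it, thus lie inside the gene as placed in GENCODE. The stretch before the RefSeq start is shown for reference. It runs over 250 bases on the minus strand, chr12:128823959-128824208 (RefSeq, GRCh38.p14), and capitals mark the one match to TGACNNNGC, the core of the antioxidant element that NRF2 binds:
SLC15A4: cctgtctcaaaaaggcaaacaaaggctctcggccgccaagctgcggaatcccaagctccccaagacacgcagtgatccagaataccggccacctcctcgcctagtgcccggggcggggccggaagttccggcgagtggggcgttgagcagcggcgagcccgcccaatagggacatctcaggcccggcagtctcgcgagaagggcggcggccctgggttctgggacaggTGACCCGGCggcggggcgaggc

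The remaining lysosomal carriers did not pass. SLC38A9, the arginine sensor of mTORC1, stood at 5.00, 5.53 and 5.39 CPM in the control libraries and 5.29, 5.46 and 6.38 CPM in the knockdown libraries. Its groups overlapped (log2 fold change 0.11 with SE 0.11, edgeR adjusted p = 0.490; −0.0036 with library size scaling). SLC38A7, which exports glutamine from the lysosome, was at −0.24 (SE 0.09, edgeR adjusted p = 0.0665) and passed as lower without knockdown library C (−0.33, edgeR adjusted p = 0.0129; up to 0.253 over the fits without 1 library) and with library size scaling (−0.34, edgeR adjusted p = 0.0153). The proton-coupled carriers SLC36A1 (−0.04, SE 0.12) and SLC36A4 (−0.06, SE 0.10) did not pass on the counts. In the deposited FPKM, however, SLC36A4 stood at 4.09, 4.57 and 4.13 in the control libraries and 2.81, 3.52 and 3.39 in the knockdown libraries, with no overlap, and it passed as lower there (limma on log2(FPKM + 1), −0.31, adjusted p = 0.0300; on log2(FPKM + 0.1), −0.39, adjusted p = 0.0301). SLC36A1 spread more among the knockdown libraries, from 19.1 to 29.1 CPM, than among the control libraries, from 23.3 to 25.6 CPM.

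Among carriers of acidic amino acids, SLC1A3 (EAAT1), a sodium-driven importer of glutamate and aspartate, fell the most of all 29. SLC1A3 (ENSG00000079215, chr5:36606355-36688334, plus strand) stood at 4.02, 4.22 and 5.30 CPM in the control libraries and 2.19, 1.90 and 1.92 CPM in the knockdown libraries. All knockdown libraries were below 2.2 CPM and all control libraries above 4 CPM (log2 fold change −1.17 with SE 0.14, edgeR adjusted p = 0.000118), and no exon overlap with another gene was annotated. The related SLC1A1 (EAAT3), which also carries cysteine, had overlapping groups (log2 fold change −0.22 with SE 0.14, edgeR adjusted p = 0.244). SLC1A2 (EAAT2), the main glutamate carrier of astrocytes, held from 1 to 13 counts per library, too few to test. SLC1A3 kept its call under all 16 alternatives.

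The neutral exchangers SLC1A4 and SLC1A5 are close relatives; SLC1A4 rose and SLC1A5 did not pass, and the difference between them was not tested. SLC1A5 (ASCT2), a major entry route of glutamine in cancer cells, stood at 563, 494 and 439.6 CPM in the control libraries and 577, 609 and 454 CPM in the knockdown libraries. These values overlapped, with library C the lowest in both groups (log2 fold change 0.13 with SE 0.12, edgeR adjusted p = 0.420). SLC1A4 (ASCT1), which exchanges alanine, serine and cysteine, stood at 43.9, 39.8 and 35.7 CPM in the control libraries and 57.6, 60.9 and 44.5 CPM in the knockdown libraries. Its knockdown libraries lay above the control libraries, by a narrow margin for knockdown C (log2 fold change 0.45 with SE 0.11, edgeR adjusted p = 0.00830). The call was lost without knockdown library B (0.36, edgeR adjusted p = 0.0527; from 0.000391 over the fits without 1 library).

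**Figure D2:**
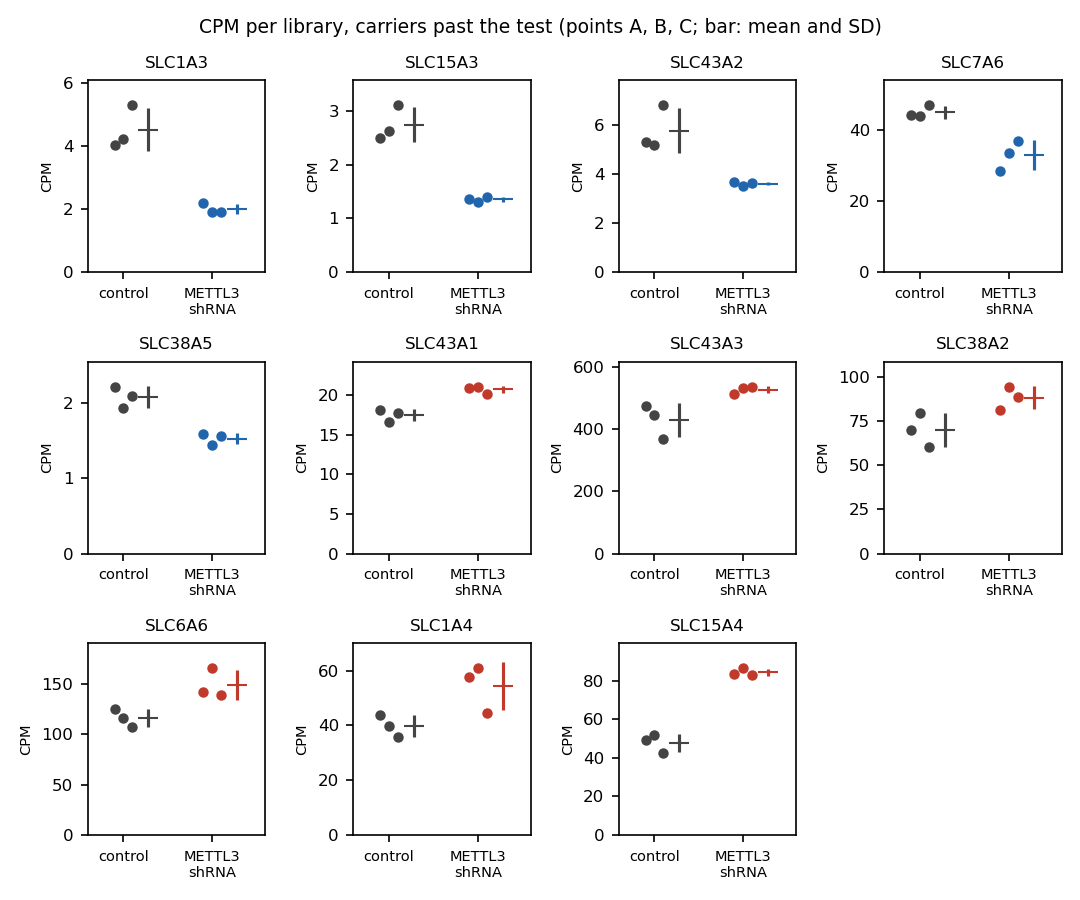
CPM in each library for the 11 carriers past the test, 1 panel per gene with its own axis from 0, points for libraries A, B and C of control (dark) and METTL3 shRNA (red for higher, blue for lower), and a bar for the mean and SD. In all 11 panels the points of the groups do not overlap; SLC15A4 rises from 47.7 to 84.5 CPM on average, and SLC1A3 falls from 4.51 to 2.00 CPM.

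The groups did not overlap for 13 of the 29 tested carriers, 7 with the knockdown above and 6 below, where 47.4% of all genes tested had this property (23.4% above and 23.9% below). Besides the 11 called ones these were SLC7A7 and SLC38A10.

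The exchanger SLC7A5 with SLC3A2, known as LAT1 with 4F2hc (CD98), was the most abundant pair, and neither chain passed the test. SLC7A5 (ENSG00000103257, chr16:87830023-87869488, minus strand), the importer of leucine and other large neutral amino acids, stood at 2344, 2067 and 1806 CPM in the control libraries and 2284, 2476 and 2247 CPM in the knockdown libraries. Control library A lay within the knockdown range (log2 fold change 0.17 with SE 0.11, edgeR adjusted p = 0.229). SLC3A2 (ENSG00000168003, chr11:62856102-62888875, plus strand) stood at 829, 766 and 658 CPM in the control libraries and 721, 694 and 707 CPM in the knockdown libraries. Control libraries spread on both sides of the knockdown ones (log2 fold change −0.09 with SE 0.10, edgeR adjusted p = 0.519). Near-identical copies of SLC7A5 could share its reads, but SLC7A5P2 held at most 93 counts and SLC7A5P1 is listed at 0, beside at least 198784 counts for SLC7A5 in a library.

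Of the other light chains, SLC7A6 (y+LAT2), which exports arginine in exchange for glutamine, fell. SLC7A6 stood at 44.0, 43.7 and 46.9 CPM in the control libraries and 28.3, 33.5 and 36.7 CPM in the knockdown libraries, with all knockdown libraries below the lowest control one (log2 fold change −0.45 with SE 0.09, edgeR adjusted p = 0.00275). Its overlapping neighbour on the opposite strand, SLC7A6OS, fell as well (−0.32, SE 0.07, edgeR adjusted p = 0.00522), and reads of the pair may not be fully divided. SLC7A11 (xCT), the cystine importer that feeds glutathione synthesis, stood at 18.7, 20.5 and 14.1 CPM in the control libraries and 14.9, 18.0 and 13.8 CPM in the knockdown libraries. These ranges overlapped, with control C lowest among the controls (log2 fold change −0.19 with SE 0.13, edgeR adjusted p = 0.286), and without control library C it passed as lower (−0.33, edgeR adjusted p = 0.0425; up to 0.732 over the fits without 1 library). SLC7A7 (y+LAT1) was at 0.18 (SE 0.09, edgeR adjusted p = 0.137), with the knockdown libraries just above the controls, and passed without knockdown library C (0.25, edgeR adjusted p = 0.0451; up to 0.346 over the fits without 1 library). SLC7A8 (LAT2) had from 3 to 13 counts and was not tested. SLC3A1, the other heavy chain, had 11 to 27 counts in a library and did not pass (log2 fold change 0.25 with SE 0.40, edgeR adjusted p = 0.666). Its exons overlap those of PREPL on the opposite strand, which had from 5817 to 8420 counts in a library.

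Since light chains work together with SLC3A2, their ratio to it was taken within each library from the deposited FPKM, which are scaled to transcript length. The log2 ratio of SLC7A5 to SLC3A2 was 0.18, 0.12 and 0.14 in the control libraries and 0.35, 0.49 and 0.33 in the knockdown libraries. All knockdown ratios were above all control ratios, with a mean difference of 0.25 (exact permutation test, two-sided, p = 0.1, the smallest that 3 against 3 allows; adjusted p = 0.2 over 4 ratios). For SLC7A6 the log2 ratio was −5.21, −5.22 and −4.84 in control and −5.78, −5.38 and −5.23 in knockdown libraries, with the groups barely apart and a mean difference of −0.37 (exact p = 0.1, adjusted p = 0.2). Ratios of SLC7A7 (difference 0.25, exact p = 0.2, adjusted p = 0.267) and SLC7A11 (difference −0.10, exact p = 0.5, adjusted p = 0.5) overlapped between the groups. No ratio could pass the threshold at this number of libraries.

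**Figure D3:**
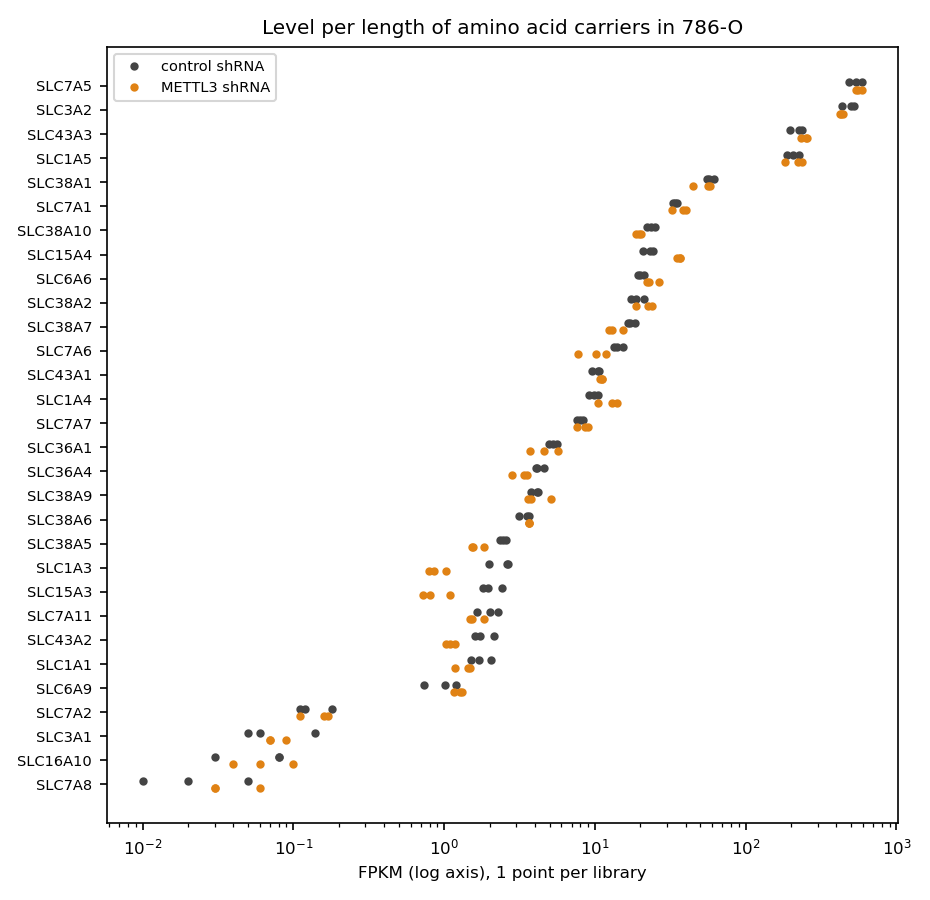
FPKM per library on a log axis for the 30 carriers above 0 in every library, ordered by the control mean, dark points for control and orange for METTL3 shRNA. SLC7A5, SLC3A2, SLC43A3 and SLC1A5 stand apart at the top, above 180 FPKM in each library, and 4 carriers lie below 0.2 FPKM in each library.

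By level per length, a few carriers made up most of the set. In the control group, SLC7A5 had 536 ± 53.2 FPKM, SLC3A2 485 ± 42.1, SLC43A3 220.0 ± 19.7 and SLC1A5 207 ± 18.9 (SD, n = 3). The ranges of SLC7A5 and SLC3A2 overlapped, as did those of SLC43A3 and SLC1A5, although SLC7A5 was above SLC3A2, and SLC43A3 above SLC1A5, within each of the 6 libraries. The next carrier, the glutamine importer SLC38A1 (SNAT1), had 58.0 ± 2.86 FPKM. Together the top 4 held 84.3% ± 1.04 of the summed FPKM of all 33 in control libraries (SD, n = 3) and 84.3% ± 0.77 in knockdown libraries (SD, n = 3). SLC3A2 took 28.3, 28.5 and 27.9% of that sum in the control libraries and 25.5, 23.6 and 25.7% in knockdown libraries, a lower share in each, while SLC7A5 took from 30.7 to 32.0% in control and from 32.4 to 33.2% in knockdown libraries. The summed FPKM was 1716 ± 137 and 1721 ± 57.4, so the set as a whole differed by less than its spread. Another 9 carriers had from 10 to 100 FPKM, 12 from 1 to 10 FPKM and 8 less than 1 FPKM in the control group.

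Carriers of cationic amino acids did not pass. SLC7A1 (CAT1), the main arginine importer of most cells, stood at 245, 229 and 216 CPM in the control libraries and 242, 295 and 272 CPM in the knockdown libraries. Control A lay above knockdown A (log2 fold change 0.23 with SE 0.09, edgeR adjusted p = 0.0651). SLC7A1 passed as higher in 3 of the 10 alternatives that keep all libraries, among them DESeq2 (0.23, adjusted p = 0.0361). It also passed without knockdown library A (0.30, edgeR adjusted p = 0.0261, and up to 0.240 over the fits without 1 library). SLC7A2 (CAT2) was at about 1 CPM (log2 fold change 0.18 with SE 0.21, edgeR adjusted p = 0.537).

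Sodium- and chloride-coupled carriers and the SLC38 family held the taurine and glutamine importers among those that rose. SLC6A6 (TauT), which imports taurine, stood at 125, 116 and 107 CPM in the control libraries and 141, 165 and 138 CPM in the knockdown libraries. All its knockdown libraries lay above all controls (log2 fold change 0.36 with SE 0.09, edgeR adjusted p = 0.00903). SLC6A9 (GlyT1), the glycine importer, was at 0.34 (SE 0.17, edgeR adjusted p = 0.130) and passed as higher without control library A (0.50, edgeR adjusted p = 0.0473; up to 0.42 over the fits without 1 library). It overlaps CCDC24 on the opposite strand, which rose (0.42, SE 0.11, edgeR adjusted p = 0.01). SLC6A15, a carrier of neutral amino acids found in brain, is listed at 0 counts in all 6 libraries, which with a floor of 3 counts allows up to 0.0317 CPM, counting error only.

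SLC38A2 (SNAT2), whose amount is known to rise on amino acid withdrawal, stood at 70.2, 79.7 and 60.2 CPM in the control libraries and 81.6, 94.8 and 89.1 CPM in the knockdown libraries. The lowest knockdown library was just above the highest control one (log2 fold change 0.34 with SE 0.10, edgeR adjusted p = 0.0199). That call was lost without control library C (0.24, edgeR adjusted p = 0.0879), without knockdown library B (0.29, edgeR adjusted p = 0.0888; from 0.0109 over the fits without 1 library) and with library size scaling (0.23, edgeR adjusted p = 0.0936). SLC38A1, the most abundant of the family, had overlapping groups (log2 fold change −0.02 with SE 0.09, edgeR adjusted p = 0.884). SLC38A5, a carrier of glutamine, serine and glycine present at low level, stood at 2.22, 1.93 and 2.09 CPM in the control libraries and 1.59, 1.44 and 1.56 CPM in the knockdown libraries. All knockdown libraries were lower (log2 fold change −0.44 with SE 0.15, edgeR adjusted p = 0.0326), yet the call was lost on leaving out any 1 of the 6 libraries (edgeR adjusted p from 0.0512 to 0.105). SLC38A4 had at most 2 counts and was not tested. The less studied SLC38A6 (0.03, SE 0.11; −0.08 with library size scaling) and SLC38A10 (−0.18, SE 0.08, edgeR adjusted p = 0.0822) did not pass, although all knockdown libraries of SLC38A10 lay below the controls. SLC38A10 passed as lower with library size scaling (−0.29, edgeR adjusted p = 0.0105) and on the deposited FPKM.

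The SLC43 family, carriers that work without a coupled ion, divided. SLC43A2 (LAT4), which lets branched-chain amino acids, phenylalanine and methionine leave the cell, lies at chr17:1569267-1628886, minus strand (ENSG00000167703) and stood at 5.31, 5.19 and 6.81 CPM in the control libraries and 3.66, 3.52 and 3.65 CPM in the knockdown libraries. The knockdown libraries were nearly equal and all below the controls (log2 fold change −0.68 with SE 0.13, edgeR adjusted p = 0.00157), with no exon overlap annotated. SLC43A1 (LAT3), with the same kinds of substrate, stood at 18.1, 16.6 and 17.8 CPM in the control libraries and 21.0, 21.1 and 20.2 CPM in the knockdown libraries. All its knockdown libraries were higher (log2 fold change 0.24 with SE 0.08, edgeR adjusted p = 0.0261). The call of SLC43A1 was lost on leaving out control B, control C, knockdown A or knockdown B (p between 0.0522 and 0.112, adjusted, edgeR) and with library size scaling (0.13, edgeR adjusted p = 0.216). SLC43A3 is placed in this family by sequence but is known as a carrier of purine nucleobases. SLC43A3 stood at 473, 446 and 369.5 CPM in the control libraries and 514, 531 and 537 CPM in the knockdown libraries, with control C the lowest and all knockdown libraries above the controls (log2 fold change 0.30 with SE 0.10, edgeR adjusted p = 0.0313). Its call was lost without control library B or C or any of the knockdown libraries (edgeR adjusted p from 0.0502 to 0.142) and with library size scaling (0.19, edgeR adjusted p = 0.106). SLC16A10 (TAT1), a carrier of aromatic amino acids, had 16 to 35 counts and did not pass (log2 fold change 0.19 with SE 0.33, edgeR adjusted p = 0.680).

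**Figure D4:**
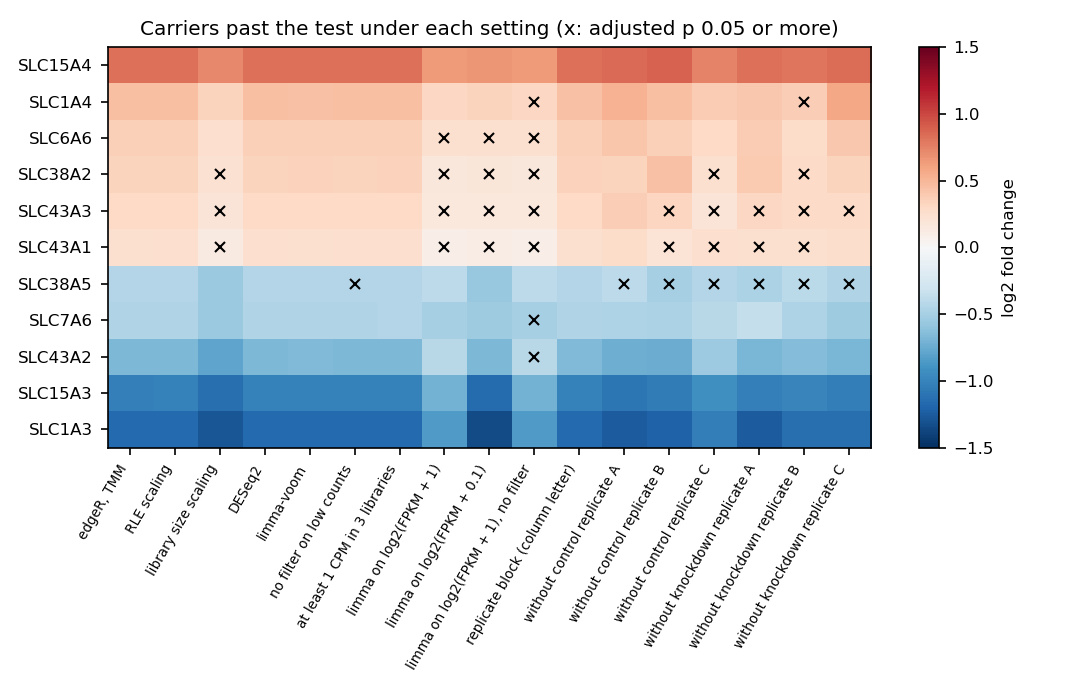
Log2 fold change (colour, red higher and blue lower in METTL3 shRNA) of the 11 carriers past the test in the reported fit and under 16 alternatives, with a cross where the adjusted p was 0.05 or more. SLC15A4, SLC15A3 and SLC1A3 have no cross, SLC43A3 has 9, SLC43A1 8 and SLC38A5 7; no carrier changes colour.

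On the deposited FPKM, tested with limma as log2(FPKM + 1), 2 carriers were higher and 8 lower. The calls of SLC6A6, SLC38A2, SLC43A1 and SLC43A3 were lost there, with log2 differences of 0.24, 0.17, 0.10 and 0.16. SLC36A4 (−0.31, adjusted p = 0.0300), SLC38A7 (−0.34, adjusted p = 0.0174) and SLC38A10 (−0.26, adjusted p = 0.0216) passed as lower there. The median over all genes tested was −0.09 on this scale. With log2(FPKM + 0.1) the same 4 calls were lost and the same 3 gained.

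The complex of METTL3 methylates adenosines within a short consensus, of which GGACT (with U for T in the RNA itself, its A being the base methylated) is the form met most often. m6A itself was not analysed here, so the letters below are a description of the transcripts only. In 1 GENCODE 29 reference transcript per gene, on the sense strand, 27 of the 29 tested carriers held at least 1 GGACT, beside 91.3% of 13820 tested protein-coding genes. The median was 1.00 per kilobase in the tested carriers and 0.945 in all those genes. It was 0.639 in the 6 carriers that rose, 0.860 in the 5 that fell and 1.09 in the 18 that did not pass, each within the interquartile range of all genes (0.567 to 1.42). SLC36A1 held 14, the most of any, and SLC7A7 and SLC43A3 held 0.

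For the carriers described in most detail, the GGACT nearest to the stop codon is printed with 8 bases on either side, GGACT in capitals:
SLC15A4: tgggttctGGACTgctggcac
SLC1A3: atcgcggtGGACTggttcctg
SLC15A3: tgccccaaGGACTttgggaac
SLC43A2: gcctcacgGGACTgcagtctc
SLC7A5: gtggccgtGGACTtcgggaac
SLC3A2: tctcggctGGACTgcaggcct
SLC1A5: tgggggcaGGACTcctccaaa
SLC38A9: cagcatgtGGACTggcctttg
SLC7A11: gaactaatGGACTtgagatct
SLC38A2: tttgcactGGACTgtcatctc
The A of the motif lies in the coding part of exon 7 of SLC15A4 (chromosome 12, 128799317), 217 bases before the stop codon, and in exon 9 of SLC1A3 (chromosome 5, 36683989), 212 bases before it. In SLC15A3 it is in exon 7 (chromosome 11, 60937875), 158 bases before the stop codon, and in SLC43A2 in exon 13 (chromosome 17, 1576687), 250 bases before it. The sites of SLC7A5, SLC3A2, SLC1A5 and SLC38A9 are also coding, 581, 160, 184 and 142 bases before the stop codon. Only in SLC7A11 and SLC38A2, of these 10, was the nearest site in the 3′ UTR, 11 and 1252 bases after the first base of the stop codon. The carrier that rose most, SLC15A4, and SLC15A3, which fell, each held 1 GGACT in the whole transcript, and SLC1A3, which fell most, held 6.

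Promoters (250 bases before to 50 after the annotated start, RefSeq on GRCh38.p14) were matched for 25 of the 33 carriers, with 46 entries because some genes have several starts. SLC1A2, SLC3A1, SLC15A3, SLC7A11, SLC6A6, SLC7A2, SLC6A15 and SLC43A3 had no entry. The C/EBP-ATF response element, through which ATF4 acts on amino acid genes, was searched by its core TGATGNAA on both strands. It was found in 13.0% of the carriers' promoters, belonging to 6 genes, and in 3.62% of all 35116 promoters. Within the 250 bases before the start alone, the shares were 4.35% of the carriers' promoters (SLC1A3 and SLC1A5) and 3.14% of all. The contrast thus depends on matches that reach past the start. Of these, the matches of SLC1A4 and SLC38A1 begin before it, at −7 and −4. The matches are printed because this is the element by which carriers are known to answer amino acid shortage, with the match in capitals and up to 8 bases on either side:
SLC1A4: gctcccgtTTGCATCAtctccagc
SLC1A3: gaaatgacTGATGCAAagcagggt
SLC3A2: aggactccTTACATCAgctcc
SLC38A1: gacccgaaTGATGAAAagggatca
SLC7A1: cgcactgcTGATGAAAcctggcgc
SLC1A5: gaagtggcTGATGCAAgctgtcca
The match of SLC1A4, which rose, reads on the opposite strand (promoter chr2:64989149-64989448, plus strand). That of SLC1A3, which fell, lies in the promoter at chr5:36596338-36596637, plus strand. This promoter lies upstream of the gene as placed in GENCODE (from 36606355), and the SLC1A3 entries nearer to that start had no match. The other 4 genes, SLC3A2, SLC38A1, SLC7A1 and SLC1A5, did not pass the test. The matched promoters of SLC1A4, SLC3A2, SLC38A1 and SLC1A5 lie inside the gene as placed in GENCODE. That of SLC7A1 spans the GENCODE start. The E-box CACGTG, the core bound by MYC and by the lysosomal regulator TFEB, was found in 17.4% of the carriers' promoters and 7.26% of all, in 8 genes of which SLC43A1 rose and SLC38A5 fell. The antioxidant core TGACNNNGC was found in 17.4% and 13.3%, in 8 genes of which SLC15A4 rose and SLC1A3 and SLC7A6 fell.

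Genes around the carriers were counted in 4 lists. In the ATF4 response list, 10 of 29 tested genes rose, 2 fell and 17 did not pass (median 0.17), a share of 41.4% called beside 33.5% of all genes. The pseudokinase TRIB3 (0.74, SE 0.14), the translation repressor EIF4EBP1 (0.75, SE 0.15), and the transcription factors CEBPB (0.43, SE 0.09) and DDIT3 (0.46, SE 0.10) rose with the smallest p-values. ASNS, asparagine synthetase, stood at 67.5, 69.8 and 45.9 CPM in the control libraries and 93.0, 91.6 and 73.6 CPM in the knockdown libraries, with all knockdown libraries above the controls (log2 fold change 0.50 with SE 0.14, edgeR adjusted p = 0.0145). The ATF4 transcript itself did not pass (log2 fold change −0.07 with SE 0.09, edgeR adjusted p = 0.556), and ATF3 (−0.61, SE 0.15) and STC2 (−0.33, SE 0.10) fell, both chosen after their values were seen. Of this list 6 genes were called without knockdown library A and 5 without knockdown library B.

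**Figure D5:**
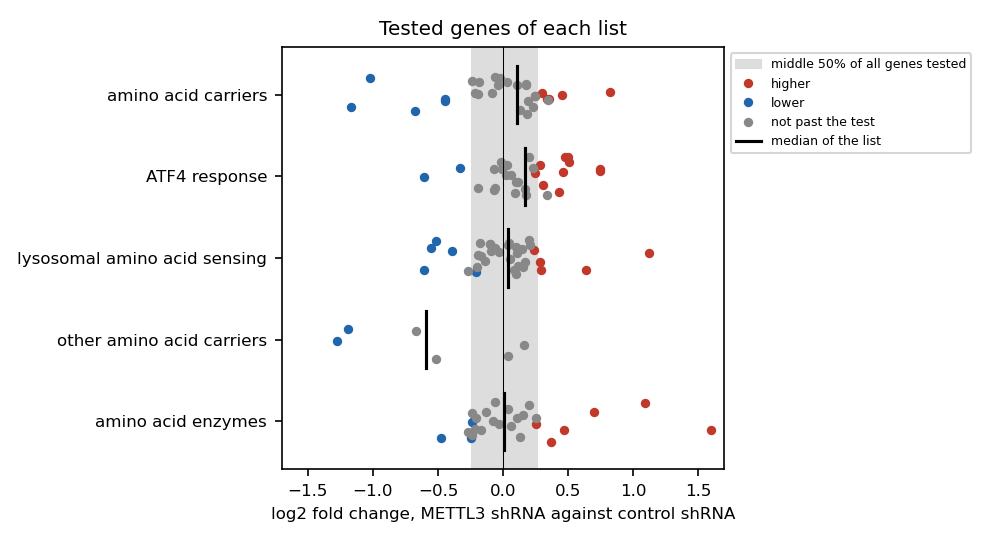
Log2 fold change (METTL3 shRNA against control shRNA) of each tested gene in the carriers and 4 lists, red for higher, blue for lower and grey for not past the test, with a black line at the list median and a grey band for the interquartile range of all genes tested. The medians of the carriers and of 3 lists lie inside the band, between 0.0046 and 0.17, and that of the other amino acid carriers, with only 6 genes tested, is −0.59.

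In the list of lysosomal amino acid sensing, 5 of 35 tested genes rose, 5 fell and 25 did not pass (median 0.04). The share called was 28.6% beside 33.5% of all genes. The arginine sensor CASTOR1 stood at 10.5, 9.62 and 8.09 CPM in the control libraries and 22.7, 21.6 and 16.9 CPM in the knockdown libraries and was higher in all knockdown libraries (log2 fold change 1.12 with SE 0.12, edgeR adjusted p = 6.59e-05). Its relative CASTOR2 fell (−0.61, SE 0.17; chosen after its value was seen), as did the lysosomal transcription factor TFEB (−0.52, SE 0.07) and KPTN, a subunit of the complex KICSTOR (−0.55, SE 0.13). The GTPase RRAGD rose (0.64, SE 0.08), and so did the leucine sensor SESN2 (0.29, SE 0.09). The number called was 6 without control library C or knockdown library B.

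Of 30 other amino acid carriers outside the set, only 6 were expressed enough to be tested. Of these, 0 rose and 2 fell, or 33.3% called beside 33.5% of all genes (edgeR, where 2 had an unadjusted p under 0.05). With DESeq2, 2 were called. The 2 that fell were the GABA importers SLC6A12 (−1.27, SE 0.39), which also carries betaine, and SLC6A13 (−1.20, SE 0.36). Both were under 1 CPM, and neither call was kept when control C, knockdown A or knockdown B was left out. The lysosomal cationic carrier SLC66A1 and the vesicular glutamate carrier SLC17A7 did not pass (0.16 and −0.67).

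Enzymes that use the imported amino acids moved in both directions, with 6 of 26 tested higher, 3 lower and 17 not past (median 0.0046). The share called was 34.6% beside 33.5% of all genes. BCKDK, the kinase that switches off breakdown of branched-chain amino acids, rose (0.69, SE 0.12), and arginase ARG2 rose from 6.00 ± 1.65 to 12.8 ± 2.75 CPM (SD, n = 3 each). Proline dehydrogenase PRODH rose from a low level (0.323 to 0.978 CPM on average). Glutamine synthetase GLUL is listed at 0 in every library. From this table, absence of its transcript cannot be told apart from reads not assigned to it.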

How the data were processed

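RNA of 786-O cells was rRNA-depleted and sequenced as paired ends on a DNBSEQ instrument, per the labels' protocols. The authors deposited raw counts per gene and, in a second table, FPKM, scaled to transcript length and library size. Per the submitters' processing notes, STAR 2.7.10b, Salmon and GRCh38 were used, with no role named; the counting step and its strand setting were not given in the sources used here. Table columns carry a letter (A, B, C) and no replicate number. Columns named for the control were assigned by name and the other 3 by elimination to METTL3 shRNA, so a library is named by group and letter. METTL3 was low in exactly those columns. The letters were not treated as pairing the libraries, and whether they mark a shared batch is not known.

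Counts were fitted with edgeR 4.0.16 (R 4.3.3; TMM scaling, default filter on low counts, quasi-likelihood test, Benjamini-Hochberg over all 18740 genes tested, threshold 0.05), and the script was tested on simulated data. The SE is the log2 fold change divided by the square root of F. FPKM served for levels and ratios, the latter with exact permutation tests (scipy 1.17.1). Alternatives were DESeq2 1.42.0, limma 3.58.1 on log2(FPKM + 1) and on counts, other scalings and filters, the letter as a block, and leaving out each library. Each library held at least 100534896 counts; for carriers with low counts, such as SLC15A3, SLC43A2, SLC38A5 and SLC38A6, counting error can equal or exceed the spread seen between libraries. No 2 libraries of a group were alike within counting error (chi-square over its degrees of freedom between 16.5 and 62.8).

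Members and lists were chosen with earlier results of these data known. Told in full were called carriers with an absolute log2 fold change of at least 0.5 and SLC7A5, SLC3A2, SLC7A11, SLC1A5, SLC38A2 and SLC38A9; of each list, up to 4 genes with the smallest p and ATF4, ASNS, SESN2 and METTL3. Other genes were named after their values were seen. GGACT was counted in GENCODE 29 transcripts. Protein sequences were not used here, and a few genes of the lists or beside a carrier are not reported here.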

Additional observations from a re-analysis of the deposited data

How the results depend on the processing

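Under the 16 alternatives, 3 of the 11 called carriers (SLC1A3, SLC15A3 and SLC15A4) kept call and direction in each, 8 lost the call in at least 1, and 0 changed direction. Depth limits the carriers with few counts. Library size scaling gave 3 carriers higher and 1985 genes higher in all. On log2(FPKM + 1), 2 carriers were higher and 8 lower, with 1588 genes higher, 14 amino acid enzymes and 0 other carriers changed. On log2(FPKM + 0.1) the counts were 2, 8, 1568, 14 and 0. Without a filter on FPKM, 1 carrier and 1027 genes were higher, and 0 ATF4 response genes, 6 lysosomal sensing genes and 0 other carriers changed. With at least 1 CPM in 3 libraries, 0 other carriers changed (fewer genes tested). The cause of the other shifts was not tested.

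Leaving out 1 library at a time gave from 2 to 7 carriers higher and from 4 to 5 lower, from 2053 to 3265 genes higher and from 1959 to 3324 lower, and from 5 to 14 ATF4 response genes, 6 to 11 lysosomal sensing genes and 0 to 2 other carriers changed.

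Directions reversed among carriers that had not passed: SLC38A9 (−0.0036) and SLC38A6 (−0.0797) with library size scaling, and SLC3A1 (−0.0080) on unfiltered log2(FPKM + 1). Over the fits without 1 library, log2 fold changes crossed 0 for SLC16A10 (from −0.0524 to 0.382), SLC38A1 (from −0.0779 to 0.0533), SLC36A1 (from −0.209 to 0.0891), SLC36A4 (from −0.147 to 0.0308) and SLC38A6 (from −0.0173 to 0.0629). The C/EBP-ATF core was met in 2 genes in the 250 bases before the start.

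With the column letter as a block, 7 carriers were higher, 3421 genes higher and 3564 lower. Same-letter libraries correlated at −0.02, −0.05 and 0.17 in their deviations from the group means, and not every library correlated best with its own letter, so the letter is not treated as a pairing.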
